A study of Danio rerio with 7 samples.

Results

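The sperm tail genes tekt1, tekt2, ropn1l and cimap1b were followed across 7 adult zebrafish. They were 4 of the 11484 genes that could be named on the array, and all 4 were among the 8845 named genes with a tested probe. They were chosen from these same data, because in the comparison of males 8 and 9 with the 4 females they differed most among the sperm flagellum genes of an earlier list. Their sex differences are therefore a description here and carry no test. Their probes were found by RefSeq accession, 5 probes in all, with 1 probe each for tekt1 (NM_001007397), ropn1l (NM_001004624) and cimap1b (NM_199958, formerly odf3b) and 2 probes for tekt2 (NM_001017432).

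The fish were full siblings of a hybrid strain (AB crossed with an unknown strain), 4 labelled female (numbers 4, 7, 8 and 9) and 3 labelled male (numbers 5, 8 and 9). No treatment or exact age is given in the sources used here. Each whole animal was homogenised, so testis and ovary were measured together with every other tissue, and total RNA was set in Cy5 on 1 array against a common Cy3 reference, which the labels call the hybrid reference. Per the series design, the siblings served to relate expression to copy number variants, and the genotypes were not analysed here. In such bulk RNA, fewer cells of a type and less RNA per cell cannot be told apart.

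The tail of a sperm is a motile cilium built on the axoneme, a ring of doublet microtubules around a central pair, which dynein motors bend and radial spokes help to control. Tektins are filament proteins that lie inside the doublets and stabilise them, and in mammals TEKT2 is needed for sperm to swim. ROPN1L binds anchoring proteins of protein kinase A and belongs to the radial spoke in mammals. CIMAP1B is a ciliary microtubule associated protein related to outer dense fiber proteins of the mammalian sperm tail. The same machinery serves cilia of the nose, kidney, ear and brain ventricles, so a whole fish holds motile cilia in either sex.

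The arrays were uneven, and 1 library went against its label in its egg coat genes. The share of probes with Cy5 well above background ran from 29.7% in the library labelled male 5 to 65.2% in female 7. Per the file headers, females 7 and 9 and male 9 were scanned in 1 session (session 1), male 8 alone in another (session 2), and females 4 and 8 with the library labelled male 5 in a further one (session 3). Male 8 was on its own slide. The headers give females 4 and 7 the same slide and position code, likewise female 8 and male 9, and female 9 and the library labelled male 5, and the part of this in the results was not tested. The egg coat gene zp2.1 had a log2 ratio of -0.21 ± 0.25 (SD, n = 4) in females, -5.63 in male 8 and -4.14 in male 9, but -0.09 in the library labelled male 5. The egg coat gene zp3b, at -5.17 in male 8 and -4.82 in male 9, was at 0.60 there, within the female range of -0.90 to 0.70. Male 8 had 0.59 and male 9 had 1.37 of the testis hormone gene amh, and the library labelled male 5 had 0.14, against 0.05 ± 0.07 (SD, n = 4) in females. For the testis transcription factor gene dmrt1 the values were 0.76, 1.40 and 0.15, against 0.39 ± 0.23 (SD, n = 4). Cy5 of amh and dmrt1 was not well above background in the library labelled male 5 or in females 4 and 8. The low ratios of these 2 genes there cannot show that testis RNA was absent. The differences of the sperm tail genes below are given with and without that library.

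All values by fish are log2 ratios of the fish (Cy5) over the reference (Cy3), after background correction and normalization within the array, unless raw signal is named. Raw signal is the spot's median minus its local background, in scanner units, and is not adjusted for the brightness of the array. The median raw Cy5 signal over all probes was 35 units in female 7 and 22.5 in female 9, against 11 in male 8 and 11 in male 9. Ratios of different probes are not set against each other as levels.

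Tekt1, a tektin of the doublet wall, had log2 ratios of 0.12, 0.28, 0.07 and 0.09 in females 4, 7, 8 and 9. Male 8 had 2.62 and male 9 had 2.22, while the library labelled male 5 had 0.03. Males 8 and 9 lay far above every female without overlap, while the library labelled male 5 was the lowest of the 7. The raw Cy5 signal of the probe was 10.5, 35, 4.5 and 24 units in females 4, 7, 8 and 9, 6 in the library labelled male 5, 210 in male 8 and 126 in male 9. Cy5 was well above background in 2 of 4 females and 2 of 3 males. The reference channel of tekt1 stayed between 16.5 and 32 units and was well above background on 1 of the 7 arrays.

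Tekt2, the other tektin, gave 0.18, 0.85, -0.05 and 0.72 on its brighter probe in females 4, 7, 8 and 9. Male 8 stood at 2.0 and male 9 at 2.82, and the library labelled male 5 at 0.12. The groups of females and of males 8 and 9 did not overlap in this ratio, and the library labelled male 5 fell among the females. In raw Cy5 signal, not adjusted for the brighter array of female 7, they did overlap: female 7 had 176.5 units, between male 8 (163) and male 9 (192.5). The other females had 19 (female 4), 8.5 (female 8) and 108 units (female 9), and the library labelled male 5 had 13. Cy5 was well above background in 3 of 4 females and 3 of 3 males, and the reference, at 27 to 54 units, on 7 of 7 arrays.

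The second tekt2 probe was dimmer and showed a smaller gap. Its log2 ratio was -0.04, 0.13, -0.12 and 0.16 in females 4, 7, 8 and 9, 0.06 in the library labelled male 5, 0.63 in male 8 and 0.85 in male 9. Here too males 8 and 9 were above each female in ratio. Female 7, whose array was brighter, had the highest raw Cy5 signal of all, 58.5 units against 56 in male 8 and 50.5 in male 9. Cy5 was well above background in 2 of 4 females and 2 of 3 males. The probes of tekt2 therefore gave the same order between the groups and differences of unequal size.

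Ropn1l, the ropporin-like gene, was below the reference in every female, a sign that includes any dye effect because no dyes were swapped. Females 4, 7, 8 and 9 were at -0.36, -1.05, -0.38 and -0.94. The library labelled male 5, at -0.34, lay just above the highest female, and male 8 was at 1.2 and male 9 at 1.23. Males 8 and 9 agreed closely and stood clear of the other fish. The raw Cy5 signal was 4, 15, 0 and 9 units in females 4, 7, 8 and 9, 0 in the library labelled male 5, 102 in male 8 and 71 in male 9. Cy5 passed the background criterion in 1 of 4 females and 2 of 3 males, which is exactly the 3 arrays needed to be tested, whereas the reference, at 34 to 66 units, passed on 7 of 7.

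Cimap1b reached 0.61, 0.75, 0.24 and 0.01 in females 4, 7, 8 and 9. The library labelled male 5 had 0.27, whereas male 8 had 2.89 and male 9 had 2.77. Males 8 and 9 were again above every female, and the library labelled male 5 was within the female range. Raw Cy5 signal was 28, 96, 11 and 16 units in females 4, 7, 8 and 9, 13 in the library labelled male 5, 249 in male 8 and 171 in male 9. Unlike the other 3 genes it was well above background in 4 of 4 females, and in 2 of 3 males. Its reference signal (15 to 36 units) was well above background on 0 of 7 arrays, so the denominator of each ratio rested on a signal near background.

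**Figure D1:**
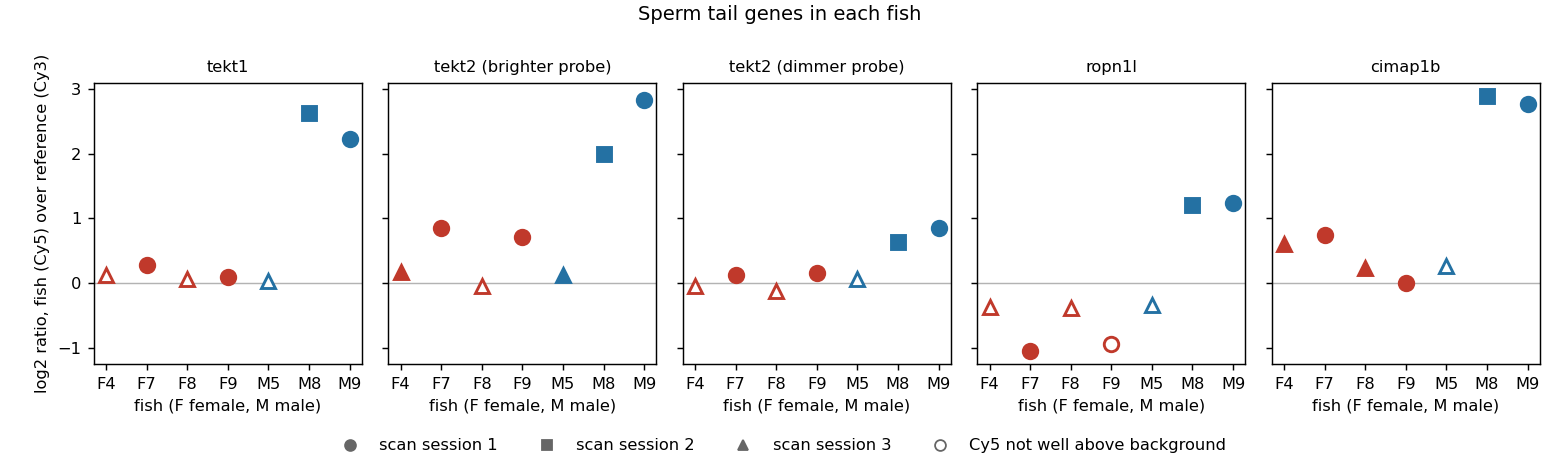
Log2 ratio of each fish (Cy5) over the reference (Cy3) for the 5 probes, with females in red, males in blue, the marker shape giving the scan session and open markers showing Cy5 not well above background. Males 8 and 9 lie above all 4 females on each probe, and male 5 lies with the females.

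**Figure D2:**
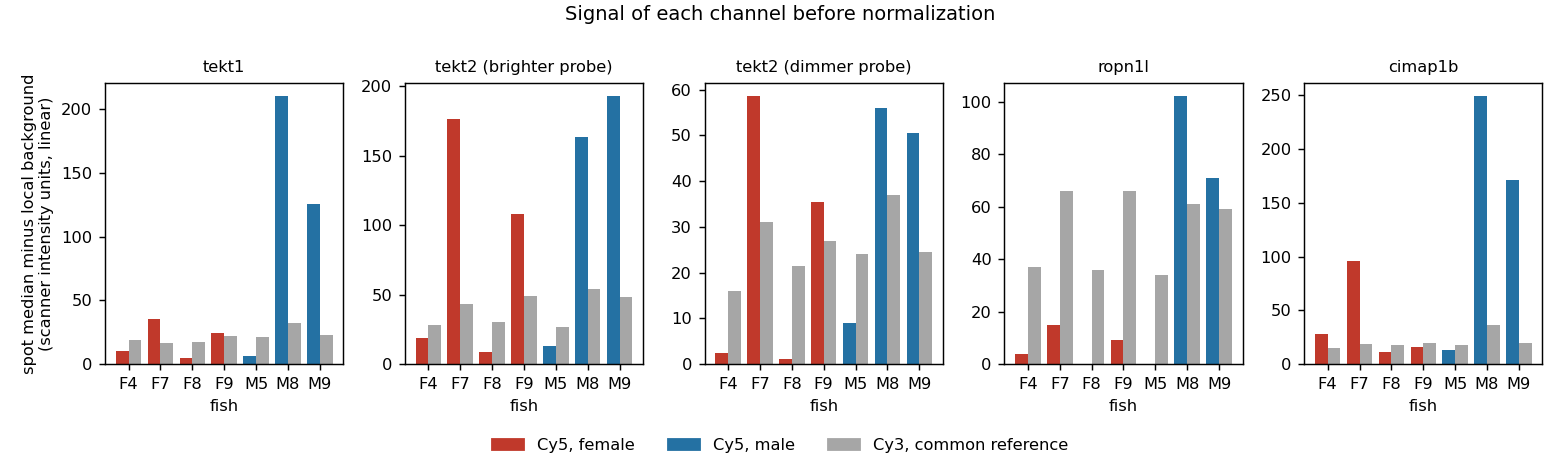
Raw signal in each channel (spot median minus local background, linear scale starting at 0, a separate axis for each probe) for each fish, with Cy5 in red (female) or blue (male) and the Cy3 reference in grey. The reference varied by at most 2.4-fold between arrays for any probe, and female 7 reaches the males in Cy5 for both tekt2 probes but not for tekt1, ropn1l or cimap1b. Raw signal is not adjusted for array brightness, and the array of female 7 was brighter in Cy5 than those of the males.

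The 5 probes were thus alike in the order of the groups. Males 8 and 9 both exceeded all 4 females in log2 ratio for 5 of 5 probes and in raw Cy5 signal, not adjusted for array brightness, for 3 of 5. The same order of log2 ratios was met by 25.2% of all tested probes that had a value in those 6 fish, and the choice of the genes fixes it here. The library labelled male 5 lay within the female range for 3 of 5 probes, below it for tekt1 and above it for ropn1l.

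Without the library labelled male 5, the 2 remaining males exceeded the 4 females by 2.28 ± 0.17 (SE) on the log2 scale for tekt1, which is 4.86-fold. The difference was 1.98 ± 0.34 (SE, 3.95-fold) for tekt2 on its brighter probe and 0.71 ± 0.16 (SE, 1.64-fold) on its dimmer one. It was 1.90 ± 0.25 (SE, 3.73-fold) for ropn1l and 2.43 ± 0.24 (SE, 5.40-fold) for cimap1b. The differences of cimap1b and tekt1 lay within an SE of each other, as did those of tekt2 (brighter probe) and ropn1l. In this comparison 12.1% of all tested probes were called higher in males by limma (Benjamini-Hochberg adjusted p under 0.05), and 13.2% higher in females.

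With all 7 fish the differences were smaller and their errors larger, the male group then holding 2 high values and 1 at the level of the females. Males exceeded females by 1.48 ± 0.58 (SE) for tekt1, 1.22 ± 0.62 for tekt2 (brighter probe), 0.48 ± 0.22 for its dimmer probe, 1.38 ± 0.43 for ropn1l and 1.58 ± 0.64 for cimap1b, on the log2 scale. The male SD was 1.40 for tekt1 and 1.48 for cimap1b (n = 3), against female SDs of 0.10 and 0.34 (n = 4). With 7 fish, limma called 0% of the 22705 tested probes at an adjusted p under 0.05, while 1525 probes (6.72%) had an unadjusted p under 0.05.

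Within session 1, male 9 exceeded females 7 and 9 by 2.04 ± 0.20 (SE) for tekt1, 2.03 ± 0.20 for tekt2 (brighter probe), 2.23 ± 0.19 for ropn1l and 2.40 ± 0.34 for cimap1b. These 3 fish were among those that chose the genes and the male arm is 1 array, so the values are a description. In that session limma called 34% of all named genes in either direction. Session 2 held 1 male and no female, so it gives no value of its own.

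The library labelled male 5 was not used in choosing the genes, although females 4 and 8, with which it was scanned, were. Against those 2 females its tekt1 ratio differed by -0.07 (95% interval -0.62 to 0.48) on the log2 scale, and its tekt2 ratio on the brighter probe by 0.05 (-0.59 to 0.69). For ropn1l the difference was 0.02 (-0.52 to 0.57) and for cimap1b -0.15 (-0.92 to 0.62). On the dimmer tekt2 probe it was 0.14 (-0.41 to 0.70). The male arm of this comparison is 1 array, so these intervals hold no spread among males. Among all probes of that comparison 0% were called, and 1.14% had an unadjusted p under 0.05. Except on the dimmer tekt2 probe, each interval ends below the lower end of the matching session 1 interval, which began at 1.52 for tekt1, 1.53 for tekt2, 1.73 for ropn1l and 1.53 for cimap1b. The session 1 fish were among those that chose the genes, so their intervals are no independent yardstick. Cy5 of tekt1, ropn1l and the dimmer tekt2 probe was not well above background in females 4 and 8 or in the library labelled male 5. For these probes a small difference cannot show equal levels. The difference between the sessions was not itself tested. The intervals hold for this background correction: with the scanner software's processed signals those of session 3 ran from -2.62 to 1.02 for tekt1, from -2.20 to 3.86 for tekt2 (brighter probe), from -3.63 to 1.64 on its dimmer probe and from -1.12 to 1.93 for ropn1l. For cimap1b the interval was then -3.19 to -0.12, the library labelled male 5 lying below females 4 and 8. Cy5 of cimap1b was not well above background in that library, and its reference was so on 0 of 7 arrays. This value too is a description. The array of the library labelled male 5 had fewer probes detected in Cy5, 29.7% against 47.2% in male 8 and 45.7% in male 9. Its median raw Cy5 signal was 6 units, against 11 in male 8 and 11 in male 9. The 99th percentile was 1830 units, against 1930 and 2170. The part of dimness in the low values of that library was not tested.

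**Figure D3:**
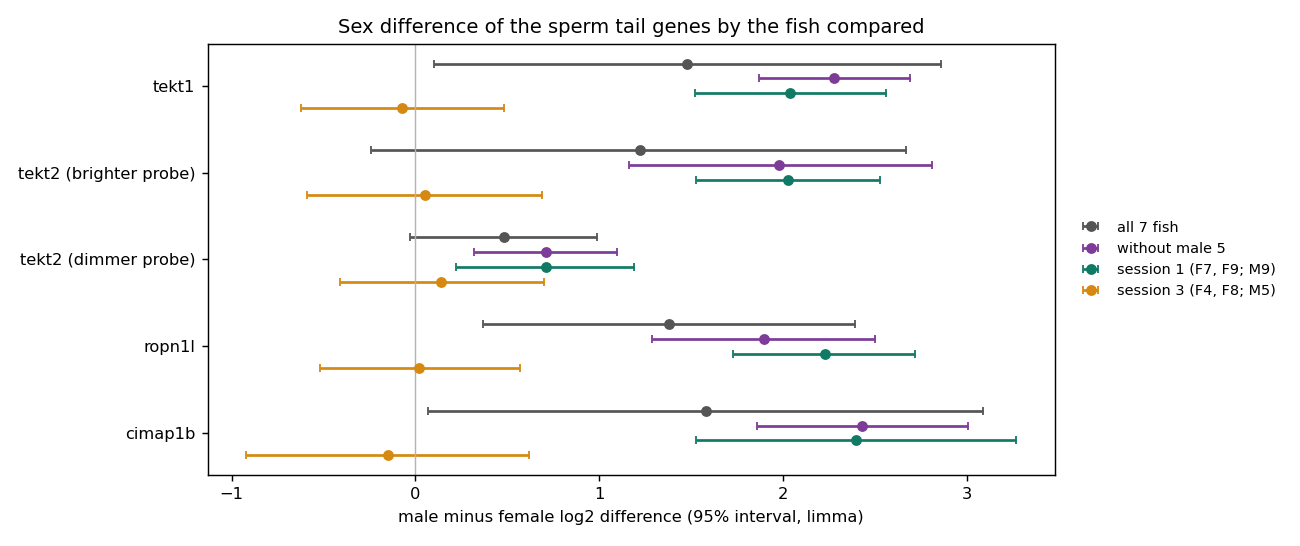
Male minus female log2 difference of each probe with its 95% interval from limma, for all 7 fish, without male 5, within session 1 and within session 3 (F female, M male). The differences without male 5 and within session 1 lie together, and those of session 3 surround 0. Each set, that of session 3 included, holds females that chose the genes, so all are descriptions. The male arm of session 3 is male 5 alone.

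The size of the gap depended on how background was treated, its direction without the library labelled male 5 did not. With the scanner software's processed signals, females 4, 7, 8 and 9 and males 8 and 9 gave a male excess of 5.26 for tekt1, 3.53 for tekt2, 5.45 for ropn1l and 3.48 for cimap1b on the log2 scale. With each array centred on its median in place of loess the excess was 1.58, 0.97, 1.25 and 1.53. Under that centring the median difference of all tested probes also moved, from -0.05 to 0.24 (female minus male), and why the gap was smaller was not tested. The calls of all probes then split into 30 higher in males (0.132%) and 676 higher in females (2.98%), in place of 2758 and 2999. In all 16 alternatives run without that library, the 5 probes were higher in males. The genes were chosen in these same fish for their difference, so the constant direction is no independent support.

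The 4 genes also differed in how alike their profiles were over the fish. Likeness was taken as the root mean square difference between log2 ratio profiles, each centred on its own mean over the 7 fish, and it is a description. Tekt1 and cimap1b were nearest, at 0.20. Tekt1 lay 0.40 from ropn1l and 0.43 from tekt2, and cimap1b lay 0.46 from either. With tekt2 on its brighter probe, tekt2 and ropn1l were farthest apart, at 0.61, and females 7 and 9, the females of session 1, had the highest tekt2 and the lowest ropn1l ratios among the females. The dimmer tekt2 probe lay 0.84 from cimap1b, 0.75 from tekt1 and 0.62 from ropn1l, so the gene farthest from tekt2 depended on the probe. Without the library labelled male 5, tekt1 and cimap1b lay 0.22 apart and tekt2 (brighter probe) and ropn1l 0.60.

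Of 8828 other named genes, 1 lay nearer than tekt1 to the mean profile of the set, 10 nearer than cimap1b, 101 nearer than ropn1l and 112 nearer than tekt2 (brighter probe). Without the library labelled male 5 these were 4, 15, 101 and 156 of 8830, and 6 of the 8 nearest genes were shared. The mean profile is made from the sperm tail genes themselves, which were chosen for their difference in males 8 and 9. Their nearness to it is therefore partly fixed in advance. The gene nearest to that mean profile was slc6a1b (0.10), a transporter of the neurotransmitter GABA. It was followed by hsd17b3 (0.15), an enzyme that makes testosterone, and odad1 (0.17), a docking factor of the outer dynein arm. The next were zgc:112294, zte38 and si:ch211-163l21.7 (0.18 each), rarres3l (0.19) and cimip2b (0.20), a ciliary microtubule inner protein. For slc6a1b, male 8 had a log2 ratio of 3.09 and male 9 one of 3.18, and the library labelled male 5 had 0.77, against 1.06 ± 0.22 (SD, n = 4) in females. For cimip2b, male 8 had 2.45, male 9 had 2.19 and the library labelled male 5 had -0.07, against -0.21 ± 0.12 (SD, n = 4) in females.

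**Figure D4:**
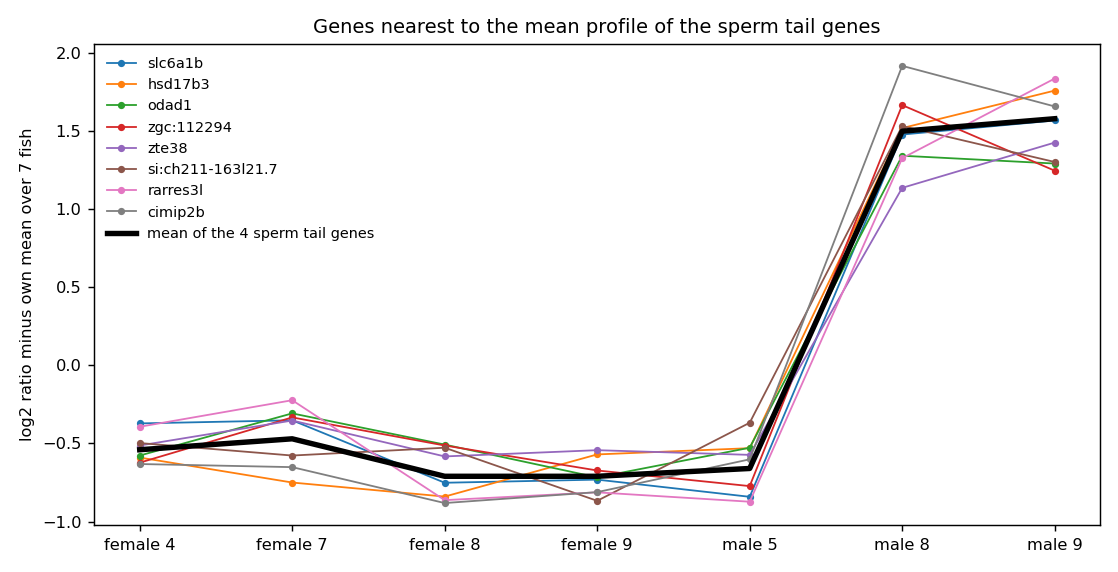
Log2 ratio of each fish minus the gene's own mean over 7 fish, for the mean of the sperm tail genes (thick black line) and the 8 named genes nearest to it. Each line is low in the 4 females and in male 5 and high in males 8 and 9.

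The other genes of the tail and of motile cilia were taken from lists by role, with the brightest tested probe of each gene. Many of the tested structural genes of the axoneme rose in the same 2 males as tekt1, tekt2, ropn1l and cimap1b. Among 28 tested structural genes, 13 rose in males 8 and 9 by limma without the library labelled male 5 and 0 rose in females, with a median difference of -0.58 (female minus male). The background criterion can favour this count, because a gene high in these 2 males can pass through them. For ribc1, drc3 and odad4, Cy5 was well above background in 1 female each and in these 2 males. For ak7a, spag6, nme5, rsph3, odad1, cfap45 and saxo2, it was in 2 females each and in these 2 males. All of these genes thus reached the 3 arrays needed only through males in which they were high. Of the 13, only cfap161, si:ch211-163l21.7 and dnali1 had Cy5 well above background in 4 females each. Over all 8845 named genes 11.7% were called higher in males and 19.3% higher in females, with a median of 0.06. Whether the lists differ from other genes was not tested. With all 7 fish, limma called 0 of the 66 listed cilium and sperm genes. An unadjusted p under 0.05 was then met by 8 of the 66, and by 846 of all 8845 named genes. Of the 12 called genes given values below, the 9 higher in males 8 and 9 were then at -1.80 (dnali1) to -0.65 (cfap45), and the 3 higher in females at 0.70 (ruvbl2) to 0.84 (ruvbl1). Of the 66 genes 12 had several tested probes, and in 5 of these the calls differed between probes. When all 7 arrays had to pass the background criterion, 30 of the 66 remained. Without the library labelled male 5, limma then called 3 of these higher in males and 5 higher in females. Of all 10210 probes kept by that filter, it called 1723 higher in males and 2188 higher in females.

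Among tektins and other proteins inside the doublets, the neighbours of tekt1 and tekt2, 5 of 17 tested genes rose in males 8 and 9 and 0 in females, with a median of -0.36. The most changed was si:ch211-163l21.7, listed under the synonym cfap276, at -2.03 ± 0.17 (SE, female minus male, limma adjusted p = 0.00155). Cfap45, which lies inside the doublets, was at -1.04 ± 0.18 (adjusted p = 0.00904) and cfap161, another such protein, at -1.01 ± 0.16 (adjusted p = 0.00739). The others called were ribc1 and saxo2, which like the other listed genes outside those 12 were named after their values were seen. Of the remaining tektins, tekt4, with 2 of its 4 probes tested, was at -0.01 ± 0.18 (limma adjusted p = 0.974), and tekt3 had no named probe.

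Of radial spoke and central pair genes, the structures ropn1l is listed with, 4 of 6 tested genes rose in males 8 and 9 and 0 in females, with a median of -0.92. Ak7a, an adenylate kinase of the axoneme, was at -1.79 ± 0.19 (SE, limma adjusted p = 0.00246) and spag6, of the central pair, at -1.70 ± 0.15 (adjusted p = 0.00166). Nme5, of the radial spoke, was at -1.21 ± 0.15 (adjusted p = 0.00366), and rsph3 was the other. Ak7a and spag6 are also the 2 listed genes that limma still called when each array was centred on its median, where 0.17% of all named genes were called higher in males.

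Of dynein arm, docking and nexin link genes, the motors and their attachments, 4 of 5 tested rose in males 8 and 9 and 0 in females, with a median of -1.15. Dnali1, a light intermediate chain of the inner arm, had a larger difference than any of the 4 sperm tail genes, at -2.81 ± 0.31 (SE, limma adjusted p = 0.00266). Odad1, which docks the outer arm, was at -1.85 ± 0.17 (adjusted p = 0.00168) and drc3, of the nexin link, at -1.15 ± 0.17 (adjusted p = 0.00523). The other called gene was odad4.

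The genes that assemble and carry these parts were mixed. Over all named genes, 11.7% were called higher in males and 19.3% higher in females. The counts of the list named spermatid and sperm head, below, lie near those shares. Of 10 tested factors of dynein arm assembly, 1 rose in males 8 and 9 (dnaaf4) and 4 in females (cfap298, dnaaf10, ruvbl1 and ruvbl2). Ruvbl1 was at 1.25 ± 0.26 (SE, limma adjusted p = 0.0170) and ruvbl2 at 1.17 ± 0.25 (adjusted p = 0.0194), and their helicase-related proteins also serve other complexes. Of 17 tested genes of intraflagellar transport, 1 rose in males 8 and 9 (cluap1) and 1 in females (ift27), with a median of -0.05. That count rests on the brightest probe: another probe of ift80 (-0.91, limma adjusted p = 0.0158) and another of ift88 (-0.94, adjusted p = 0.0376) were called higher in males. Of 9 tested genes of the list named spermatid and sperm head, 1 rose in males 8 and 9 (cremb) and 2 in females, odf2b and spata6l. Spata6l was at 1.31 ± 0.14 (adjusted p = 0.00251). The list is not confined to the head, because odf2b is an outer dense fiber gene, a kind tied above to the sperm tail. For cremb, Cy5 was well above background in 1 female and in males 8 and 9. Odf2b was at 0.97 on its brightest probe and at -0.56 on its other one, which limma did not call (adjusted p = 0.261). For ruvbl1 and dnaaf10 too, the second probe was not called, at 0.66 and 0.33. Of cilium transcription genes 0 of 2 tested were called, and foxj1a and foxj1b, which switch on motile cilia, had 1 untested probe each.

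Markers of other cell types also differed between the fish, some higher in males 8 and 9 and some higher in females. Their part in the differences of the sperm tail genes was not tested. Between females and males 8 and 9, testis somatic genes rose in the males at 5 of 9 tested genes (amh, inha, hsd17b3, star and ar, list median -0.93), meiotic germ cell genes at 2 of 5 (sycp1 and syce2, list median -0.17), and egg coat genes rose in females at 11 of 11 (median 4.87). The shares over all named genes were 11.7% higher in males and 19.3% higher in females. For ar, syce2, zp3b, zpcx and cdh17 not every tested probe was called. For star, Cy5 was well above background in 1 female and in males 8 and 9, and for amh and inha in 2 females and these males. These genes too were tested only through males in which they were high. The median log2 ratio of the testis somatic genes was 0.05 to 0.28 over the 4 females, -0.01 in the library labelled male 5, 0.76 in male 8 and 1.37 in male 9. Cy5 was well above background for 2 of these 9 genes in the library labelled male 5, 8 in male 8 and 9 in male 9, and for 2 to 9 in the females. Markers of ciliated tissues outside the gonad had 1 of 5 genes called higher in males 8 and 9 (cdh17), with a median of -0.26. Their median log2 ratio was 0.05 to 0.35 over the 4 females, 0.12 in the library labelled male 5, 0.29 in male 8 and 0.38 in male 9. Of these males only male 9 lay above the female range, and only 5 of the list's 8 genes on the array were tested. Against the library labelled male 5 in session 3, limma called 0 of the 66 listed cilium and sperm genes, and 0 of them had an unadjusted p under 0.05, against 1.11% of all named genes.

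**Figure D5:**
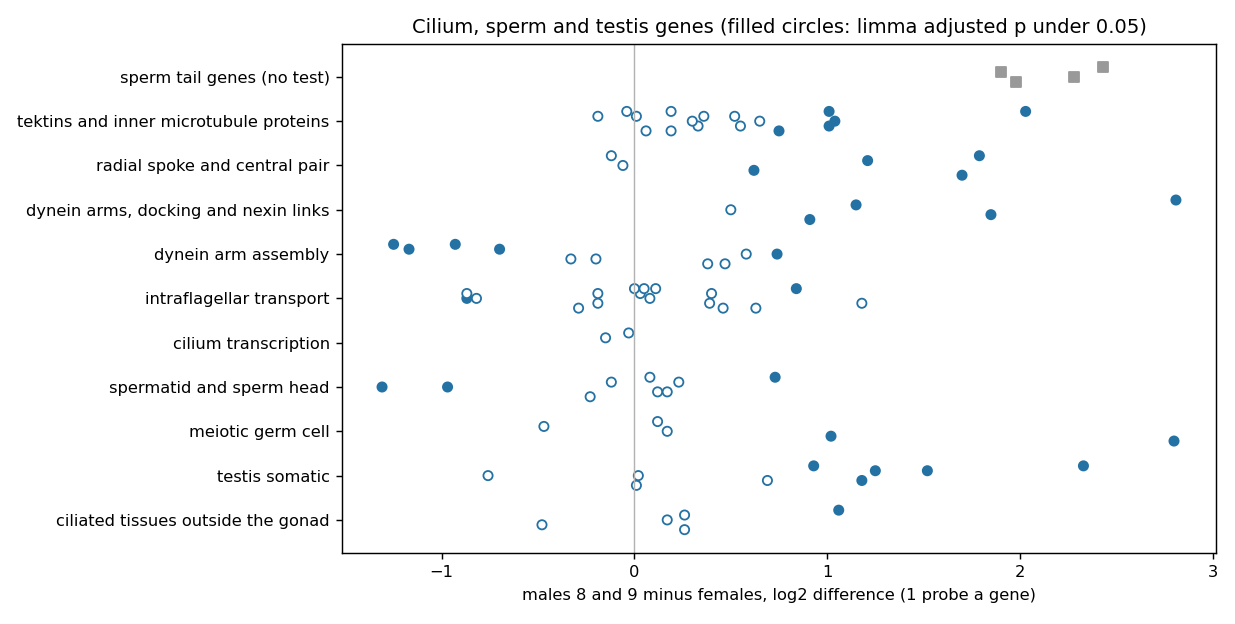
Difference between males 8 and 9 and the 4 females on the log2 scale for each tested gene, 1 probe a gene, by list (filled circles passed limma at an adjusted p under 0.05, grey squares are the sperm tail genes, which carry no test, and egg coat genes are not drawn). Structural lists lie mostly to the right of 0, and the assembly and transport lists lie on both sides. So does the list named spermatid and sperm head, which also holds the outer dense fiber gene odf2b.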

How the data were processed

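Per the file headers, arrays of design 019161 (build danRer6, Zv8) were read by the software Agilent Feature Extraction, version 10.5.1.1, under protocol GE2_105_Jan09_2. Deposited values are the median intensity of a spot and of its local background in both channels, which were used where the design named means, and processed intensities after the software's own correction. The authors' deposited value table holds log10 ratios, equal to the scanner software's at 45220 of 45220 spots within 1e-06. Per the labels, Cy3 marked the reference and Cy5 the fish, with no dye swap, so a dye effect cancels in differences between fish. The labels name total RNA, while their labelling protocol describes DNA.

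Here background was corrected by normexp (offset 50), arrays were normalized by loess, and 1417 control spots and spots marked as outliers were left out. Probes (43603) were tested where at least 3 of the 7 arrays had Cy5 well above background (22705), by lmFit and eBayes of limma 3.58.1 (R 4.3.3, two-sided), with a Benjamini-Hochberg threshold of 0.05. A low probe can pass through the males in which it is high. Names came from RefSeq accessions in a gene table of GRCz12tu (16568 probes named), and no coordinates are given because the builds differ.

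The members and lists were chosen with earlier results of these data known. Beyond the sperm tail genes, the text names the 12 called listed genes with the largest difference, tekt3, tekt4, foxj1a and foxj1b, the 8 genes nearest in profile and 4 genes that check the labels, by rule. Every other gene was named after its value was seen, to spell out a count of 5 or fewer, an outlying value or probes that differ. Each fish is a separate animal on 1 array, and the number of arrays limits the precision. The script was tested on simulated data. Alternatives were other background corrections, normalizations, filters, the deposited values, scan session, fish number and leaving out each fish. Comparisons without the library labelled male 5, the offset of 10, that offset and processed signals within sessions, the second tekt2 probe, other probes of listed genes and profiles without that library were added after seeing the data. Shared fish numbers were not taken to pair the fish in the main fits.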

Additional observations from a re-analysis of the deposited data

Results flagged for a closer look

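Among the values of the 4 females, 3 of the 38 probes examined held a fish set apart from the others by most of the group's range, and chance gives about 1 in 20. Dnali1 had its outlying log2 ratio in female 7, at 0.32, saxo2 in female 4, at 0.12, and spag6 in female 8, at -0.11. Cy5 of saxo2 in female 4 and of spag6 in female 8 was not well above background. None of the 5 probes of tekt1, tekt2, ropn1l and cimap1b held an outlying fish. Saxo2 is named here because of this value.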

How the results depend on the processing

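All differences here are female minus male on the log2 scale, in the order tekt1, tekt2 (brighter probe), ropn1l and cimap1b, and the cause of their changes was not tested. With 7 fish, processed signals and the deposited table gave -3.15, -2.43 and -3.86 for the first 3, and an offset of 10 gave -2.39 for ropn1l. Within session 1, ropn1l was -2.23, the 4 were -2.83, -2.79, -3.74 and -3.24 with an offset of 10 and -4.48, -3.20, -5.36 and -4.06 with processed signals, and 6684 probes and 23 of 66 listed genes were called. The session 1 counts rest on 1 male array. Counted in either direction, the listed genes were called there at about the share given above for all named genes. The pooled count does not show the split by direction. The median difference there was -0.31 for the 66 listed genes and 0.06 for all named genes, and whether these differ was not tested. Within session 3 the differences were 0.07, -0.05, -0.02 and 0.15, with an offset of 10 they were 0.19, -0.13, -0.05 and 0.35, and with processed signals 0.80 for tekt1, -0.40 for ropn1l, 1.66 for cimap1b and 1.00 for the dimmer tekt2 probe. Without the library labelled male 5, 9447 probes were called with processed signals and 9506 with the deposited values, against 5757, both with -5.26, -3.53, -5.45 and -3.48. Median centring then called 706 probes and 2 listed genes, with -1.58, -0.97, -1.25 and -1.53, an offset of 10 gave -3.22, -2.83, -3.33 and -3.20, tekt1 was -2.52 without background subtraction, and a scan session block gave -2.04 for tekt1 and -2.23 for ropn1l. The filter on all 7 arrays removes the sperm tail genes. It called 8 of 30 listed genes, 3 higher in males and 5 higher in females, against 16 and 7 of 66. Of all 10210 probes it kept, 1723 were called higher in males and 2188 higher in females. More were thus higher in females among the listed genes as among all probes, and whether the 2 differ was not tested. With the fish number as a replicate block, which leaves the library labelled male 5 no partner, 4084 probes and 10 listed genes were called and cimap1b was -2.71, with or without that library. The deviations of female 8 and male 8 from their group means correlated at -0.13 and those of female 9 and male 9 at 0.43. With unlike numbers the correlations were -0.62 (female 8 and male 9) and 0.11 (female 9 and male 8). So few values do not settle whether the numbers pair the fish. Leaving out each of the 7 fish called 0 to 5757 probes and 0 to 23 listed genes, the upper value only without the library labelled male 5, with tekt1 from -2.28 to -0.99, tekt2 from -1.98 to -0.63, ropn1l from -1.90 to -1.11 and cimap1b from -2.43 to -1.12. Without that library, leaving out each further fish called 3432 (male 8) to 4804 (female 8) probes and 14 to 20 listed genes, with tekt1 from -2.48 to -2.08, tekt2 from -2.39 to -1.58, ropn1l from -2.01 to -1.78 and cimap1b from -2.55 to -2.30.

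Several probes have Cy5 or the reference near background, and the sizes of the differences changed with the background correction. Each sex has few fish, 2 of the males carry the difference, and male 8 was scanned alone on its own slide.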
